A study of Mus musculus with 2 samples.

Results

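Synaptic vesicle and release genes were followed in single cells of the mouse arcuate nucleus and median eminence, the region at the base of the hypothalamus where neurons release transmitters at synapses and hormones into the pituitary portal blood. The 64 genes were taken by a rule on names, out of 26840 gene names in the merged table. These members were chosen with earlier results of these data known. They are the numbered or lettered Syt, Vamp, Stx, Stxbp, Cplx, Rab3 and Sv2 genes, with Snap25, Syp, Syn1 to Syn3, Unc13a to Unc13c, Rims1 and Rims2. On build mm10 (GENCODE annotation) Snap25 lies at chr2:136713453-136782428, Syt1 at chr10:108497650-109010982, Syt11 at chr3:88744700-88775164, Vamp8 at chr6:72385223-72390703 and Syt10 at chr15:89782393-89841860. Names such as Rab30 or Rab35 match the pattern only as text, belong to other Rab proteins and were left out. By role there were 6 vesicle SNAREs, 16 target membrane SNAREs, 10 SNARE regulators, 16 synaptotagmins, 7 vesicle proteins or synapsins and 9 priming or active zone genes.

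A wild-type (WT) library came from a pool of 7 CD-1 mice and an Irx5KO library from a pool of 6 CD-1 mice with the genotype Irx5-/-, all 7 to 8 weeks old. Irx5 encodes a homeobox transcription factor. Live cells were sorted after dissociation and captured by Drop-seq, which tags each transcript once near its 3' end with a unique molecular identifier (UMI). With 1 library per genotype no difference between genotypes can be tested, and the labels name no promoter, Cre line or cell type that would restrict the deletion.

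A vesicle fuses when a SNARE on its membrane (a VAMP) pairs with SNAREs on the target membrane (a syntaxin and SNAP25). Munc18 proteins, encoded by Stxbp genes, and complexins steer that pairing, and synaptotagmins are membrane proteins of which several bind calcium and trigger release. Munc13 proteins (Unc13 genes), RIM proteins and Rab3 GTPases dock and prime vesicles, while synaptophysin, SV2 proteins and synapsins sit on the vesicle. In the hypothalamus the same machinery serves fast transmitters and peptides, and relatives of it serve secretion and membrane traffic in cells that are not neurons.

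The promoters of 2 members higher in neuron-like than in other cells and of a member shared by neurons and pars tuberalis-like cells are shown. Letters searched for across promoters lie in them. Sequences are from RefSeq on build GRCm38.p6, in windows from 250 bases before to 50 bases after the first listed start. They are printed 5' to 3' on the gene's strand. Capitals mark the letters named beside each sequence, and other matches to the GC box and to TGACG, given further on, stay in lower case.
Syn1, encoding synapsin 1, chrX:20920919-20921168, the 250 bases before the start, with TTCAGCACC (the left arm of the RE1 element) and TGACGTCA (the cAMP response element): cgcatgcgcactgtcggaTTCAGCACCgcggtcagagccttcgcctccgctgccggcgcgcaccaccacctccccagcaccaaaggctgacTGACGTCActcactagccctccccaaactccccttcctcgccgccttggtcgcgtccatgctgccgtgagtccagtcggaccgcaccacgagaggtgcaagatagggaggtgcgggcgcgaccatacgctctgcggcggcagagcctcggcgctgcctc
Unc13a, encoding Munc13-1, chr8:71671727-71671753, a stretch that begins 5 bases into the transcript, with the right arm (first capitals) and the left arm (last capitals) of RE1, both lying on the opposite strand: GGCGCTGTCCgcgcccccGGTGCTGAA
Rab3b, encoding a Rab3 GTPase, chr4:108878820-108879069, the 250 bases before the start, with TATAAA: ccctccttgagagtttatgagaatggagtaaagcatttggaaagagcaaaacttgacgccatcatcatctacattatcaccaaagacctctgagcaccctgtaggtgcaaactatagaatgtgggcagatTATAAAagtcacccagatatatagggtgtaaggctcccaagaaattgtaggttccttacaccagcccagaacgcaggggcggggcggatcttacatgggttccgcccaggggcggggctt

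Of the 64 members, 51 were matched to a promoter, and each set of letters was searched on both strands. Capitals within 1 printed sequence do not overlap. RE1 is the element bound by the repressor REST. Its right arm, whose 10 letters are the opposite strand of the first capitals printed for Unc13a, lay in 0.148% of all 27025 promoters and in 1 member, Unc13a. TTCAGCACC lay in 0.359% of promoters and in 2 members, Unc13a and Syn1. TGACGTCA lay in 1.88% of promoters and in Syn1 and Stxbp3, and TGACG, which is part of it, in 21.0% of promoters and in 16 members. CACGTG, an E box, lay in 7.24% of promoters and in 7 members, and TATAAA in 14.2% of promoters and in Rab3b, Sv2b and Stx3. The GC box GGGCGG was common throughout, in 40 of the 51 members and in 35.9% of all promoters. A match is a description of letters in a window and no evidence of binding.

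The WT library kept 1841 cells and 3960089 UMIs, and the Irx5KO library 1949 cells and 4915775 UMIs. Cells held 587 to 17968 UMIs, with medians of 1621 in WT and 1692 in Irx5KO. Irx5 itself had 13 UMIs in 11 WT cells and 0 in Irx5KO, where 3 counts would be 0.611 CPM (a gene's UMIs per 1000000 UMIs of the same cells). One barcode occurred in both libraries. Clusters were formed without any release gene and named from markers, which gave 627 WT and 896 Irx5KO neuron-like cells. Tanycyte-like cells, the glia of the third ventricle floor, numbered 272 and 375. All 12 neuron markers were counted in both classes and both libraries, so their presence does not set neurons apart. Their summed level was 20220 and 19177 CPM in neuron-like cells, against 2969 and 2677 CPM in tanycyte-like cells. Shares of classes differed between the libraries, with 86 and 16 ependymal-like cells, and 186 and 77 oligodendrocyte precursor (OPC)-like cells.

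Summed over all members, release genes made up 7156 CPM of neuron-like cells in WT and 7495 CPM in Irx5KO. Oligodendrocyte-like cells followed with 4475 and 4606 CPM, and pars tuberalis-like cells, endocrine cells of the pituitary stalk marked by Tshb and Cga, with 4309 and 4365 CPM. OPC-like cells held 3349 and 3380 CPM, while tanycyte-like cells held 1947 and 1978 CPM and cells like vascular leptomeningeal cells (VLMC) 1950 and 1957 CPM. The class order of these sums did not rest on the same genes, as the members differed sharply in where they were counted. Because each transcript is counted once at its 3' end, CPM is used to set one gene beside another without a length correction.

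**Figure D1:**
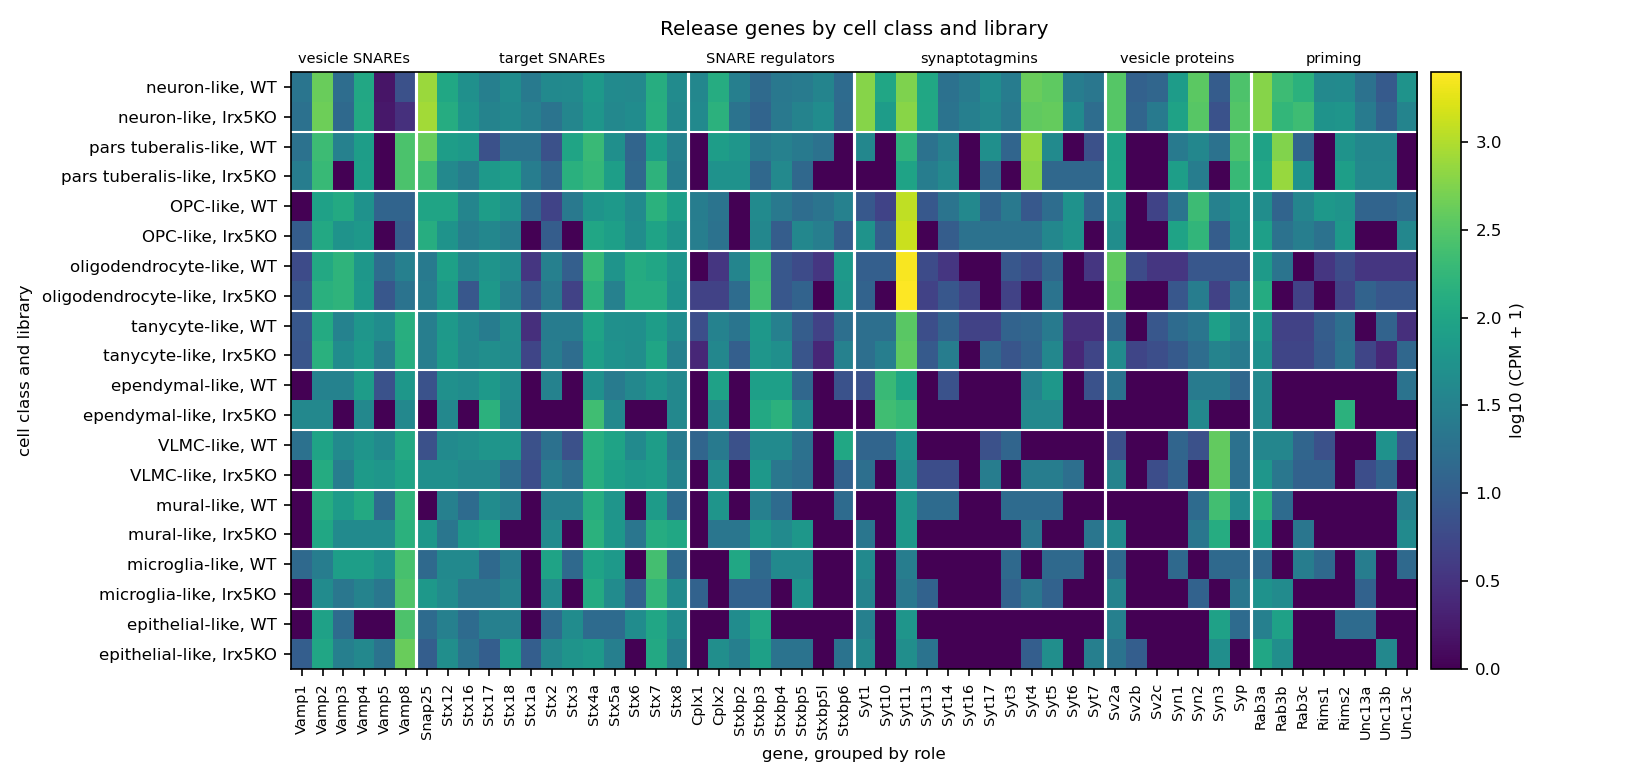
Level of 54 members with at least 50 UMIs in all kept cells, as log10 of CPM plus 1 (colour), in 10 cell classes and both libraries (rows), with genes grouped by role (columns). Snap25, Syt1 and Rab3a are brightest in the neuron-like rows, Syt11 is brightest in the oligodendrocyte-like rows at 2330 CPM (WT) and 2517 CPM (Irx5KO), and the ependymal-like row of Irx5KO rests on 16 cells.

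For 56 members neuron-like and other named cells together held at least 50 UMIs. The other 8, Stx11, Stx19, Syt2, Syt9, Syt12, Syt15, Cplx3 and Rab3d, had fewer in all kept cells, so no ratio of theirs is read. Of the 56, 32 were at least 2-fold higher in neuron-like cells in both libraries, beside 12% of 14244 genes measured the same way. The list is named for its place in neurons, so that count describes it. Only 5 were at least 2-fold lower in both libraries, beside 16.8% of all genes, and 19 were neither. Every interval given with a value is an exact 95% interval and covers counting error only.

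Synaptotagmins, priming genes and vesicle proteins made up most of the members at least 2-fold higher in neuron-like cells. That call is against all other named cells together, and single classes can hold as much, as given below. Of the synaptotagmins measured, 10 of 12 were higher in neuron-like cells, as were 7 of 8 priming genes and 6 of 7 vesicle proteins or synapsins. Of the target membrane SNAREs 3 of 14 were, among them Snap25 and Stx1a, SNAREs of the plasma membrane at synapses. The other 11 syntaxins, among them Stx6, Stx7, Stx8 and Stx12 of the endosomal and Golgi routes, differed by less than that. SNARE regulators were split, with 4 higher, among them Stxbp5l, Cplx1 and Cplx2, Stxbp3 lower and 4 neither. Vesicle SNAREs were split too, with Vamp1 and Vamp2 higher, Vamp3, Vamp5 and Vamp8 lower and Vamp4 neither.

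Syt1, the fast calcium sensor of synaptic release, had the steepest restriction of the members. Neuron-like cells held 607 (WT) and 601 (Irx5KO) CPM, against 18.4 and 21.3 CPM in other cells. Syt1 was thus 33.0-fold higher (interval 23.8 to 47.2) in WT neuron-like cells and 28.3-fold higher (20.3 to 40.5) in those of Irx5KO. Snap25 was the most abundant member in neuron-like cells, at 772 and 855 CPM, and was 12.5-fold (10.4 to 15.1) and 18.3-fold (14.6 to 23.2) above other cells. Syt5, found on dense-core vesicles, stood at 359 and 390 CPM and was 17.2-fold and 13.2-fold above other cells. Rab3c, 13.5-fold and 24.5-fold above, and Syt13, a synaptotagmin without calcium-binding residues, 17.9-fold and 14.1-fold above, were likewise restricted at lower levels of 147 and 217 CPM and of 107 and 109 CPM.

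Rab3a, the main Rab3 of synaptic vesicles, stood at 604 and 615 CPM in neuron-like cells and was 9.44-fold and 8.33-fold above other cells. The vesicle markers Syp and Syn2 stood at 285 and 310 CPM and at 353 and 332 CPM. Vamp2, the vesicle SNARE of synapses, was less restricted. It held 425 and 450 CPM in neuron-like cells and 112 and 131 CPM in other cells, 3.81-fold (3.28 to 4.44) and 3.45-fold (2.99 to 3.99) apart. Sv2a, a glycoprotein of synaptic vesicles, was 3.05-fold and 3.68-fold higher in neuron-like cells as a whole, at 321 and 322 CPM, but oligodendrocyte-like cells held as much, as given below.

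**Figure D2:**
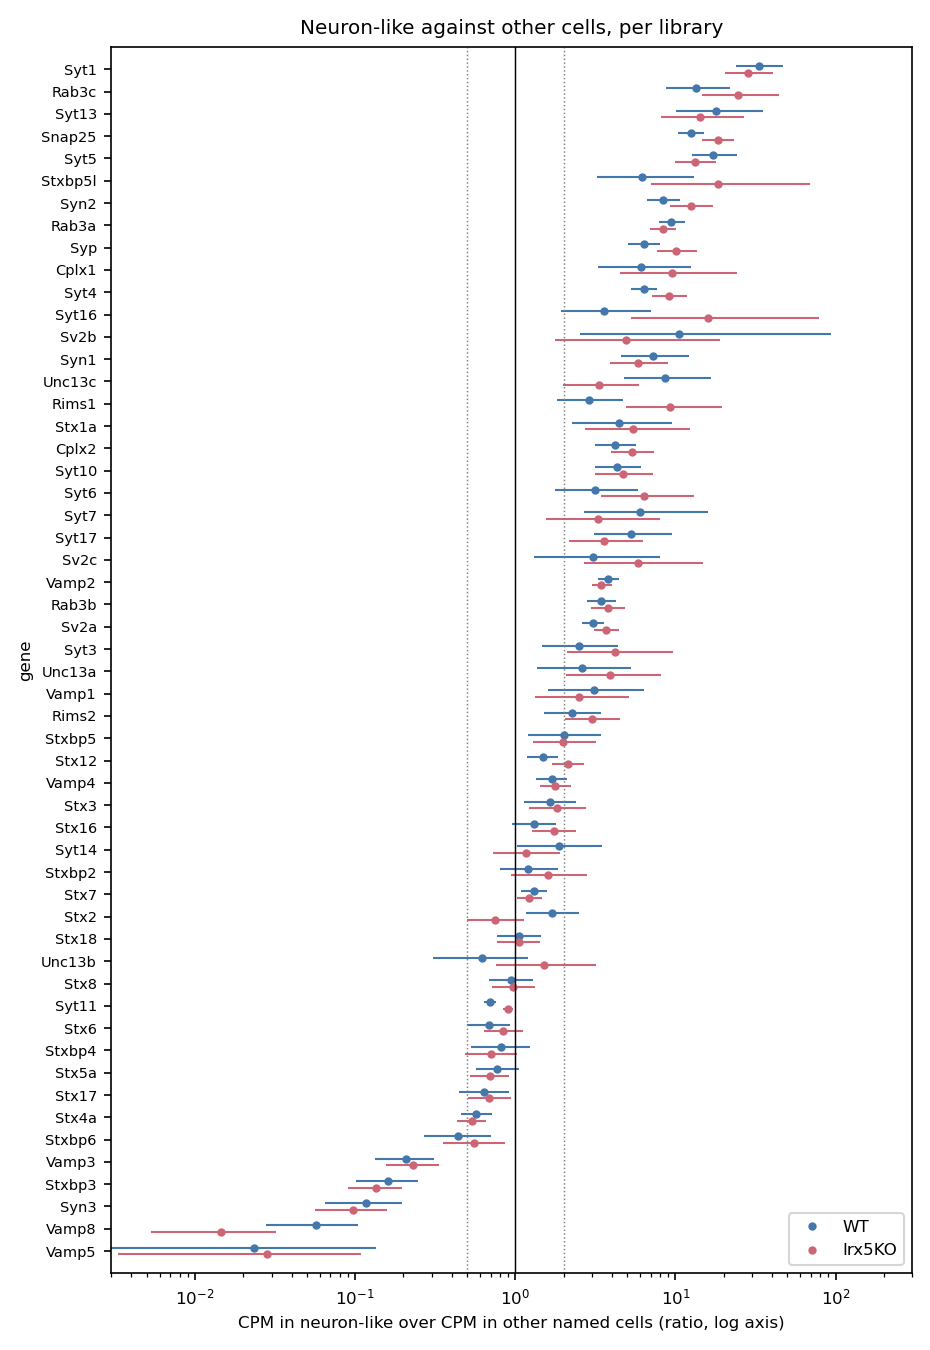
Ratio of CPM in neuron-like cells to CPM in all other named cells (log axis) for 54 of the 56 members measured, with WT and Irx5KO as separate points and bars as exact 95% intervals of the counts. Dotted lines mark 2-fold either way. Syt1 lies at the top at 33.0-fold (WT) and 28.3-fold (Irx5KO), and Vamp8 and Vamp5 lie at the bottom.

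To compare shares of cells with a UMI across depths, each cell was thinned to 1000 UMIs and shallower cells were left out. Snap25 was then counted in 50.4% of 514 WT neuron-like cells (interval 46.0 to 54.8) and in 51.2% of 766 Irx5KO neuron-like cells (47.6 to 54.8), from which 113 and 130 cells had been left out. Without thinning the shares were 73.0% and 77.8%, at median depths of 2129 and 2418.5 UMIs. In VLMC-like cells, which should lack Snap25, the thinned share was 1.15% of 87 WT cells and 1.16% of 86 Irx5KO cells. Median depths there were 1175 and 1084 UMIs, with 42 and 56 cells left out. The thinned shares are the background to set beside the other thinned shares. Without thinning the VLMC-like shares were 0.78% in WT and 4.93% in Irx5KO. Tanycyte-like cells had 1.32% and 2.05% with a Snap25 UMI, within the counting intervals of VLMC-like cells. OPC-like cells had 6.87% (3.19 to 12.6) in WT and 12.5% (5.18 to 24.1) in Irx5KO, intervals that overlap those of VLMC-like cells. Their Snap25 level was 95.2 CPM in WT and 129 CPM in Irx5KO, against 5.87 and 48.6 CPM in VLMC-like cells.

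Syt11 departed from the other synaptotagmins. It encodes a synaptotagmin that does not bind calcium, and it was highest in cells of the oligodendrocyte lineage. Oligodendrocyte-like cells held 2330 (WT) and 2517 (Irx5KO) CPM of Syt11, 4.27-fold (3.91 to 4.68) and 4.06-fold (3.71 to 4.43) the 545 and 620 CPM of neuron-like cells. Its level was 1185 and 1332 CPM in OPC-like cells and 339 and 363 CPM in tanycyte-like cells. After thinning, 86.4% of oligodendrocyte-like cells in WT and 91.0% in Irx5KO had a Syt11 UMI (30 and 16 cells left out), against 42.2% and 42.3% of neuron-like cells. Without thinning the Syt11 shares were 94.3% and 96.6% of oligodendrocyte-like cells. In microglia-like cells the thinned share was 0 of 29 cells in WT (interval 0 to 11.9, with 3 counts at 10.3%), which limits cells with a UMI and not cells expressing the gene, and 2.33% of 43 cells in Irx5KO. The difference between classes was thus far wider than the counting intervals in both libraries.

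Further members were as high or higher in oligodendrocyte-like cells. Sv2a stood there at 376 and 326 CPM, 1.17-fold (0.97 to 1.40) and 1.01-fold (0.80 to 1.26) the level in neuron-like cells, so that no difference from neurons was detectable. Vamp3, cellubrevin, a vesicle SNARE of endosomal recycling, stood at 160 and 161 CPM against 15.5 and 13.6 CPM in neuron-like cells. Near the end of its transcript Vamp3 shares up to 105 bases at 95.2% identity with Wdr33, which had 627 UMIs in the kept cells. Stxbp3, a Munc18 of cells outside synapses, stood at 214 and 236 CPM against 13.8 and 11.3 CPM. Part of the Stxbp3 reads could belong to its copy Stxbp3-ps, which is 99.4% identical over the last 500 bases and had 101 UMIs of its own in the kept cells. Stx6, a syntaxin of the trans-Golgi network, was 3.18-fold and 2.85-fold the neuron level, and Stxbp6 was 4.62-fold and 4.31-fold. Syt1 and Snap25 stayed at 9.83 and 11.3 CPM and at 24.6 and 26.3 CPM in oligodendrocyte-like cells. OPC-like cells kept Syn2 at 213 CPM (WT) and 174 CPM (Irx5KO), against 352.8 and 331.6 CPM in neuron-like cells.

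Vamp8, a vesicle SNARE of endosomes and of regulated secretion in glands and blood cells, was nearly absent from neuron-like cells. These held 11 UMIs in WT and 6 in Irx5KO, or 6.07 and 1.94 CPM. Epithelial-like cells held 278 and 413 CPM of Vamp8, pars tuberalis-like cells 270.1 and 275 CPM, microglia-like cells 253 and 290.3 CPM, and tanycyte-like cells 136 and 132 CPM. In tanycyte-like cells Vamp8 was 22.3-fold (11.8 to 46.7) the neuron level in WT and 67.7-fold (29.98 to 189) in Irx5KO. Vamp5, a VAMP first known from muscle, stood at 44.0 and 26.3 CPM in tanycyte-like cells, while neuron-like cells had 1 UMI in WT and 2 in Irx5KO. Stx7, an endosomal syntaxin, was 240.1 and 172 CPM in microglia-like cells and 132 and 134 CPM in neuron-like cells, and the interval of that ratio included 1 in Irx5KO (0.73 to 2.11).

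Syn3, a synapsin, was counted mostly outside neurons. VLMC-like cells held 388 and 368 CPM and mural-like cells 234 and 126 CPM, against 8.83 and 6.16 CPM in neuron-like cells. Timp3, an inhibitor of matrix metalloproteinases, lies within Syn3 on the opposite strand of chromosome 10 and shares 1733 annotated exonic bases with it. Timp3 stood at 2467 and 4513 CPM in VLMC-like cells, at 2163 and 1758 CPM in mural-like cells and at 39.8 and 40.5 CPM in neuron-like cells. The sources used here do not give whether the counting used strand, so reads of the pair cannot be told apart and the Syn3 level outside neurons is uncertain. In all, 13 members share exonic bases with a gene on the opposite strand.

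Pars tuberalis-like cells (88 in WT, 46 in Irx5KO) carried a release gene set that differed from that of neurons. Rab3b was 576 and 760.3 CPM there against 214 and 176 CPM in neuron-like cells, 2.70-fold (2.13 to 3.38) and 4.32-fold (3.24 to 5.67). Syt4, a synaptotagmin of dense-core vesicles, was 702 and 629 CPM against 425 and 371 CPM, 1.65-fold (1.35 to 2.01) and 1.70-fold (1.24 to 2.27). Stx3, a syntaxin of apical membranes and endocrine cells, was 96.0 and 144 CPM against 40.9 and 35.3 CPM, and Stx4a was 198 and 184 CPM against 66.8 and 60.6 CPM. All 4 were above neurons in both libraries, as was Vamp8. The Stx4a level is not particular to these cells, with 192 and 154 CPM in oligodendrocyte-like cells and 141 and 135 CPM in VLMC-like cells.

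Members of the fast synaptic machinery were lower in pars tuberalis-like cells. Syt1 had 6 UMIs in WT (36.0 CPM) and 0 in Irx5KO, where the level in neurons was at least 15.3-fold higher if 3 counts stand for the 0. In WT the neuron-like level was 16.9-fold (7.72 to 46.0) higher. Syn2 was 36.0 and 26.2 CPM, and Rab3a 90.02 and 105 CPM. Snap25 was present at 408 CPM (WT) and 223 CPM (Irx5KO), with a thinned share of 34.2% and 19.4% of cells (47.7% and 28.3% without thinning). Syp at 270.1 and 197 CPM was within its counting interval of the neuron level in both libraries.

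Pairs of related members show the contrast within a cell class, free of its depth. Rab3b made up 86.5% (78.7 to 92.2) of the UMIs of Rab3a and Rab3b in WT pars tuberalis-like cells and 87.9% (77.5 to 94.6) in Irx5KO, but 26.1% and 22.2% in neuron-like cells. Vamp8 made up 55.6% and 58.3% of the UMIs of Vamp8 and Vamp2 there, against 1.41% and 0.43% in neuron-like cells. That share is not particular to pars tuberalis-like cells. In tanycyte-like cells it was 53.2% (44.6 to 61.7) in WT and 48.0% (40.8 to 55.2) in Irx5KO. Syt1 made up 8.11% (3.03 to 16.8) of the UMIs of Syt1 and Snap25 in WT pars tuberalis-like cells, against 44.0% in WT neuron-like cells. In Irx5KO it made up 0 of 17 UMIs, against 41.3%. The ratio of Syt1 to Snap25 thus differed from that of neuron-like cells beyond counting error in both libraries. A low Syt1 share was also counted in WT OPC-like cells, at 7.41% (0.91 to 24.3), though it was 30% (11.9 to 54.3) in those of Irx5KO. Markers used for neurons were themselves counted in these endocrine cells, with 10 of 12 present and a summed level of 9938 and 10998 CPM, against 20220 and 19177 CPM in neuron-like cells.

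**Figure D3:**
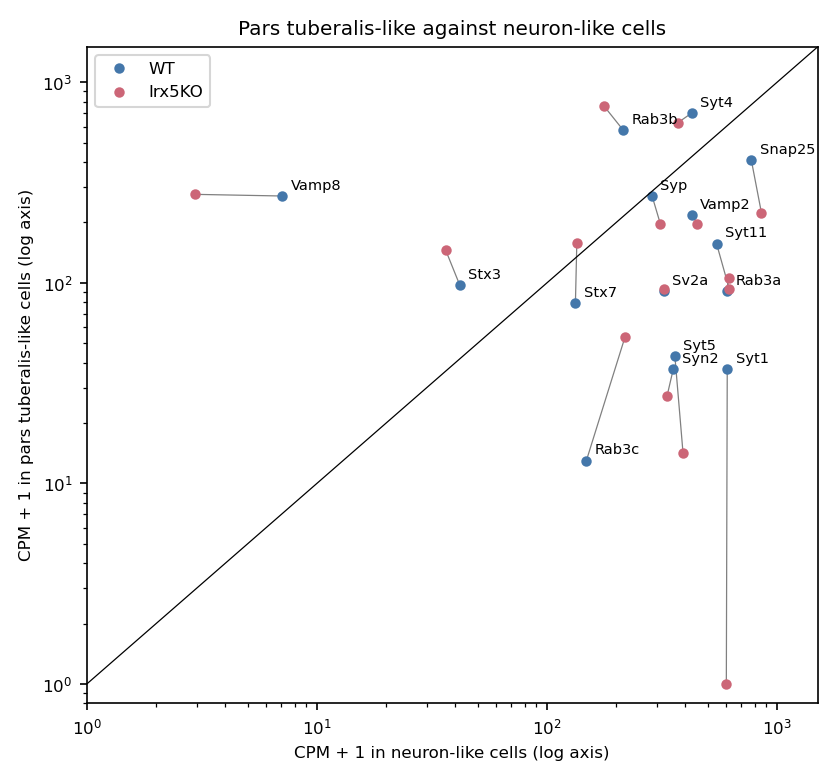
Level of 15 members in pars tuberalis-like cells (vertical, CPM plus 1, log axis) against neuron-like cells (horizontal, CPM plus 1, log axis), with a grey line joining the 2 libraries of a gene and the black line marking equal levels. Rab3b, Syt4, Stx3 and Vamp8 lie above the line in both libraries, while Syt1 lies far below it at 36.0 CPM (WT) and 0 CPM (Irx5KO).

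Of the 11 neuron clusters 9 had at least 20 cells in each library, and in 4 of these at least 1 member was called 2-fold higher than in the rest of the neurons in both libraries. Across the 9, Rab3a ranged from 454 to 864 CPM in WT and from 413 to 761 CPM in Irx5KO, and Vamp2 from 322 to 523 CPM and from 432 to 570 CPM. Snap25 ranged more widely, from 571 to 1602 CPM in WT and from 501 to 2239 CPM in Irx5KO. Both of its maxima lay in the cluster led by Foxb1, Cpne9 and Rprm.

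Syt10 was the clearest cluster-restricted member. It encodes a synaptotagmin found on IGF-1-containing vesicles in olfactory neurons. In the cluster led by Vip, Nms and Rgs16, which carries markers of the suprachiasmatic nucleus (112 WT and 72 Irx5KO cells), it stood at 450.1 (WT) and 489.9 (Irx5KO) CPM. Other neuron-like cells held 46.9 and 46.7 CPM of Syt10, which makes the cluster 9.60-fold (7.10 to 13.1) and 10.5-fold (7.98 to 13.7) higher. Syt13 was higher there too, 197 and 273 CPM against 91.8 and 97.5 CPM, and no other member was called. Of all genes, 4.43% of the 4646 measured in that cluster were at least 2-fold higher in both libraries. Ependymal-like cells also held Syt10, at 201 CPM in WT (32 UMIs in 86 cells) and 226 CPM in Irx5KO (6 UMIs in 16 cells), a value singled out after it was seen. Tanycyte-like cells, their neighbours, had a thinned Syt10 share of 0.88% and 2.05%, against 15.1% of WT ependymal-like cells.

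Snap25 and Syt1 were both more than 2-fold higher in the Foxb1 cluster (50 WT and 31 Irx5KO cells) than in other neuron-like cells, beside 6.36% of genes. Snap25 stood there at 1602 and 2239 CPM, 2.23-fold (1.89 to 2.61) and 2.78-fold (2.43 to 3.18) the rest. Syt1 stood at 1260 and 1409 CPM, 2.23-fold (1.86 to 2.67) and 2.46-fold (2.07 to 2.91). At the low end Syt1 was 257 and 154 CPM in the Agrp-like cluster, led by Npy, Agrp and Otp, and 238 and 196 CPM in the cluster led by Tac2, Kiss1 and Rxfp1. These 2 clusters had 13 and 16 WT cells, fewer than the 20 asked of the others.

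Unc13c, a Munc13 relative best known from cerebellum, was high in 2 clusters. It stood at 125 and 82.9 CPM in the cluster led by Cartpt, Hspa1a and Tbx19, 3.10-fold and 2.89-fold the rest of the neurons, beside 0.608% of genes called there. It stood at 117 and 131 CPM in the Foxb1 cluster, and at 7.90 and 5.16 CPM in the Vip cluster. In the cluster led by Fezf1, 2900022M07Rik and Ifi27l2a, 3.42% of genes were called. The next of its leading genes were A230103L15Rik, Gm44562 and Kcnq1ot1, so Fezf1 alone does not describe it. Syt7, a slow calcium sensor, was 3.15-fold (1.45 to 6.47) and 5.21-fold (2.81 to 9.56) the rest there. Stxbp6, the SNARE-binding protein amisyn, was 2.52-fold (0.89 to 6.25) and 7.77-fold, and Syt3 2.09-fold (0.96 to 4.19) and 2.34-fold, so that in WT both intervals reached below 1. The other 5 clusters of 20 or more cells per library had no member called. There the share of all genes called was 0.331% (led by Npvf), 0.389% (led by Gm12152), 0.519% (led by Penk), 1.77% (led by Pdyn) and 0.163% (led by Ttr).

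**Figure D4:**
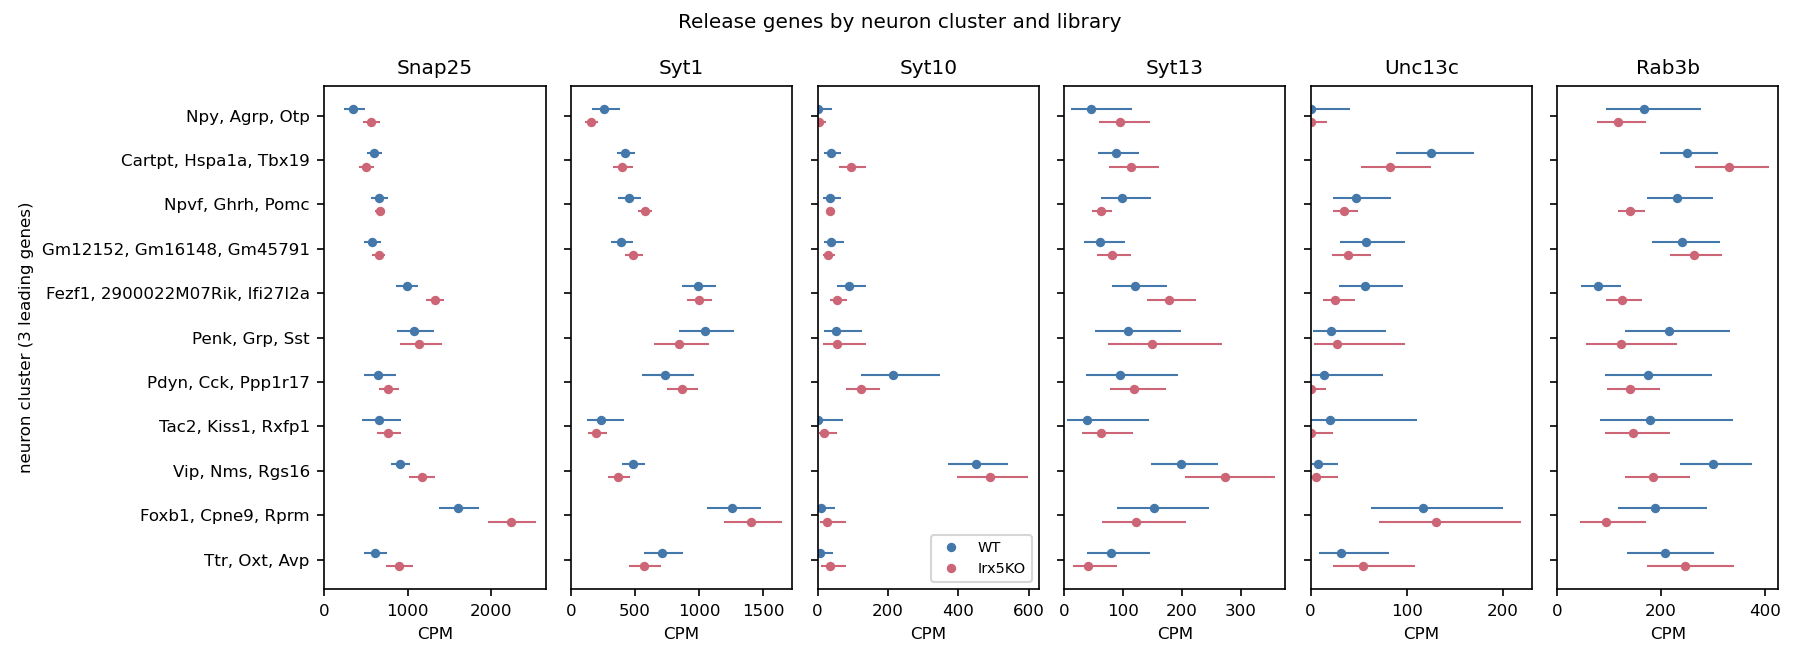
Level of 6 members (CPM, 1 panel a gene) in the 11 neuron clusters, each named by its 3 leading genes, with WT and Irx5KO as separate points and bars as exact 95% Poisson intervals. Syt10 stands out in the cluster led by Vip, Nms and Rgs16 at 450.1 and 489.9 CPM, and Snap25 and Syt1 in the cluster led by Foxb1, Cpne9 and Rprm.

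Between the genotypes the release genes of neuron-like cells stood at similar levels. Of 52 members with at least 50 UMIs there, 2 were at least 1.5-fold higher in Irx5KO, beside 12.4% of 10908 genes, and 2 were at least 1.5-fold lower, beside 6.47% of genes. The median log2 ratio of members was 0.05, against 0.07 for all genes measured. Syt1, at 607 and 601 CPM, had an Irx5KO over WT ratio of 0.99 (0.92 to 1.07), and Rab3a 1.02 (0.94 to 1.10). Snap25 had a ratio of 1.11 (1.04 to 1.18), Vamp2 1.06 (0.97 to 1.16) and Sv2a 1.004 (0.91 to 1.11). The bounds of these abundant members exclude a 1.5-fold difference between these 2 libraries as far as counting goes. Animals were pooled, so the spread between mice is unknown.

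Stx2, a plasma membrane syntaxin also known as epimorphin, was the member furthest apart. It had 73 UMIs in 62 WT cells and 60 UMIs in 54 Irx5KO cells, or 40.3 CPM and 19.4 CPM. Stx2 was thus 2.07-fold (1.45 to 2.97) lower in Irx5KO, and it was lower in 9 of the 11 neuron clusters. Clusters of 1 library are not replicates. Outside neurons Stx2 was 23.8 CPM in WT and 26.0 CPM in Irx5KO.

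Unc13c was 55.2 CPM in WT and 33.4 CPM in Irx5KO neuron-like cells, 1.65-fold (1.24 to 2.20) lower. The 2 clusters in which it is highest made up different numbers of cells in the libraries, 69 and 62 cells in the Cartpt cluster and 50 and 31 cells in the Foxb1 cluster. With all neuron clusters weighted alike its log2 ratio was -0.32 in place of -0.73, which is under 1.5-fold. Sv2c, an SV2 protein found in basal ganglia and in endocrine-type cells, was 12.1 CPM in WT (22 UMIs) and 24.0 CPM in Irx5KO (74 UMIs), 1.97-fold (1.21 to 3.34) higher. In the cluster led by Npvf, Ghrh and Pomc, which held 50 WT and 157 Irx5KO cells, it was 17.1 and 37.9 CPM. In the cluster led by Tac2 and Kiss1 Sv2c was 119 CPM (6 UMIs) and 50.6 CPM (8 UMIs), the other way round. Weighted alike, Sv2c had a log2 ratio of 0.32 in place of 0.98. That weighting takes in all 11 clusters, also those led by Npy and by Tac2, with 13 and 16 WT cells. A few UMIs in a small cluster, such as the 6 of Sv2c, thus weigh as much as many in a large one. Syt6 was 26.5 and 41.2 CPM, 1.55-fold (1.11 to 2.21) higher, and its log2 ratio fell from 0.64 to 0.30 under the same weighting. Stx2 alone of the 4 was as far apart when clusters counted equally, with a log2 ratio of -1.17. The part of cluster make-up in these 4 differences was not tested.

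**Figure D5:**
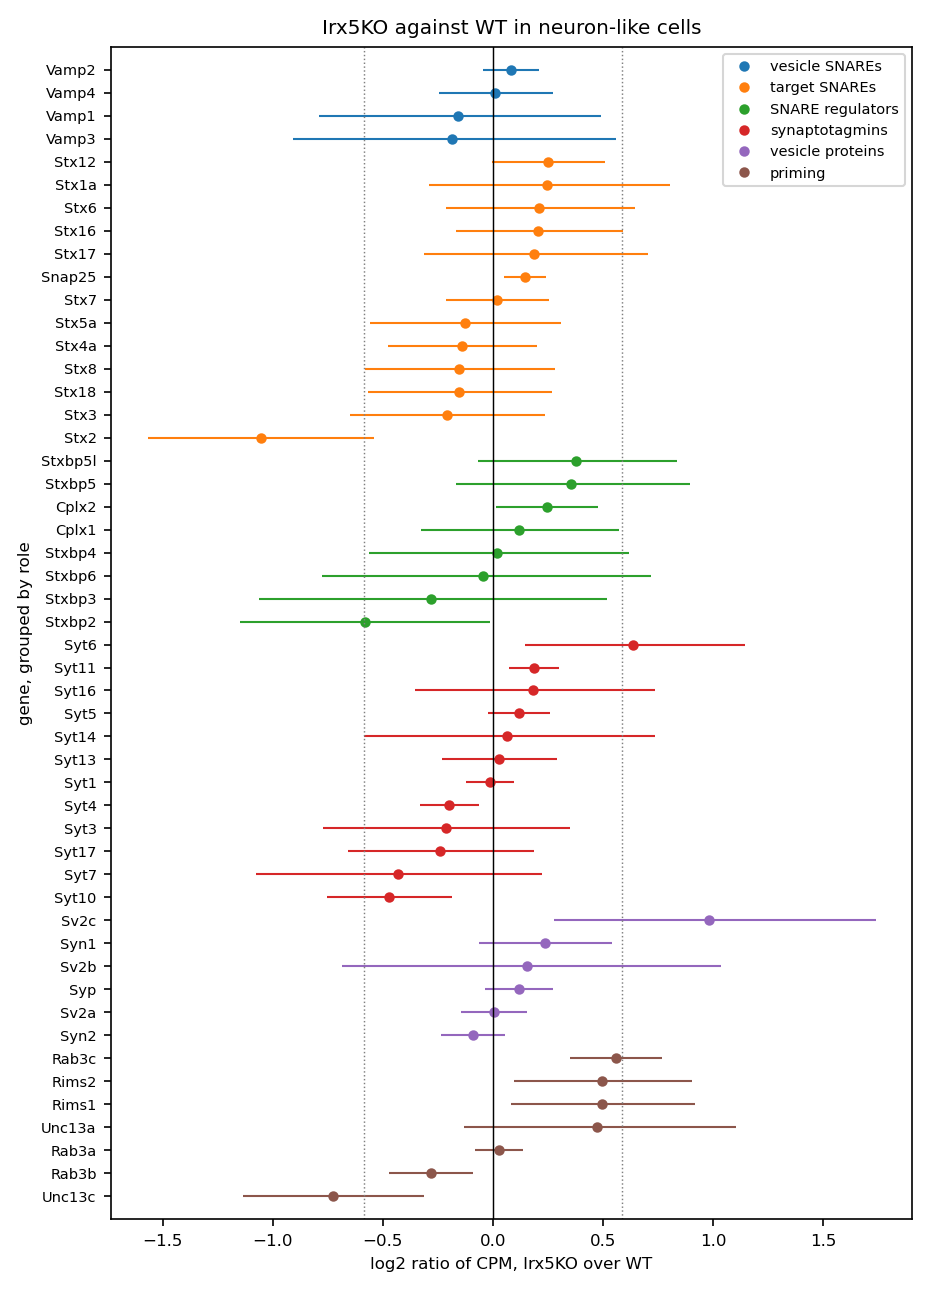
Log2 ratio of CPM in Irx5KO over WT neuron-like cells for 50 of the 52 members with at least 50 UMIs, grouped by role, with bars as exact 95% intervals of the counts and dotted lines at 1.5-fold. Stx2 (-1.05) and Unc13c (-0.73) lie left of the dotted lines and Sv2c (0.98) and Syt6 (0.64) right of them, while Syt1 (-0.01) and Rab3a (0.03) lie at 0.

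Priming and active zone genes had the highest median of the roles, a log2 ratio of 0.47 over 7 members, though none reached 1.5-fold higher. That median is the value of Unc13a alone (33 UMIs in WT, 78 in Irx5KO), which ran from 0.0007 to 0.87 under alternative settings. The 7 members did not move together, with log2 ratios from -0.73 (Unc13c) to 0.56 (Rab3c). For 21 other active zone and priming genes outside the naming rule the median in neuron-like cells was 0.19. Rab3c was 147 (WT) and 217 (Irx5KO) CPM, 1.47-fold (1.28 to 1.70), and was higher in 10 of the 11 neuron clusters. The Foxb1 cluster was the exception, at 54.0 CPM (6 UMIs) and 9.33 CPM (1 UMI). Snap25 was also higher in 10 of the 11 clusters, so this tally does not mark Rab3c out, and the clusters are not replicates. Rims1 was 38.7 and 54.5 CPM, 1.41-fold (1.06 to 1.89), and Rims2 was 41.4 and 58.3 CPM, 1.41-fold (1.07 to 1.87). Unc13a was 18.2 and 25.3 CPM, 1.39-fold (0.91 to 2.15). Rab3b went the other way, 214 and 176 CPM, 1.21-fold (1.06 to 1.39) lower, and Unc13c was lower as given above. Near the end of its transcript Rab3c shares 128 bases at 99.2% identity with Cplx2, which was 128 and 151 CPM.

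The other roles had medians from -0.07 (vesicle SNAREs, 4 members) to 0.14 (vesicle proteins and synapsins, 6 members). Stxbp2, the Munc18 of secretory blood and epithelial cells, was 28.2 and 18.8 CPM, 1.498-fold (1.01 to 2.22) lower. That is just under the limit, and under 9 of 13 alternative settings it was past it. Near the end of its transcript Stxbp2 shares up to 129 bases at 96.1% identity with Tmem214, which had 298 UMIs in the kept cells. It shares up to 102 bases at 95.1% identity with Pqlc1 (194 UMIs) and with Pola2 (39 UMIs). Syt10 was 103 and 74.5 CPM, 1.39-fold (1.14 to 1.69) lower. Without the Vip cluster, where it is highest and which held 112 WT and 72 Irx5KO cells, its log2 ratio was -0.01. The part of cell numbers in the Syt10 difference was not tested.

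In other classes few members had enough UMIs to be set side by side. In tanycyte-like cells 14 did, of which Stxbp4 was higher in Irx5KO (29.3 and 48.5 CPM, 1.65-fold, 0.89 to 3.20), beside 10.3% of genes, and Syn3 was lower, beside 8.13% of genes. Syn3 was 82.5 and 31.9 CPM there, 2.59-fold (1.53 to 4.48) lower, and its overlapping gene Timp3 was 708 and 435 CPM. In oligodendrocyte-like cells 10 members had enough UMIs, and Rab3a was higher, at 71.3 and 124 CPM, 1.74-fold (1.02 to 2.97), beside 9.18% of genes. Syt11 was within 1.08-fold (0.98 to 1.19) in these cells. In OPC-like cells 2 members had enough UMIs and neither was 1.5-fold apart, beside 7.96% of genes higher and 14.4% lower. The 1 in VLMC-like cells, Syn3, was not apart either, beside 12.2% higher and 15% lower. No member had 50 UMIs in microglia-like cells, where 17.2% of genes were higher and 14.8% lower. No member was lower in oligodendrocyte-like cells, beside 10.7% of genes.

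Over all named cells other than neurons, where 36 members had enough UMIs, none was higher in Irx5KO, beside 10.7% of genes, and 3 were lower, beside 9.07% of genes. They were Stxbp2 (23.3 and 11.8 CPM), Syt4 (67.0 and 40.8 CPM) and Syn2 (42.2 and 26.6 CPM). The make-up of these cells differed between the libraries. Pars tuberalis-like cells, where Syt4 is high, numbered 88 and 46, and OPC-like cells, where Syn2 is high, 186 and 77. The part of cell numbers in these 3 differences was not tested.

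The wider pathway was read from 76 further release genes that the naming rule does not take in. Of 68 with at least 50 UMIs in neuron-like cells, 7 passed 1.5-fold upwards in Irx5KO and 1 downwards, beside 12.4% and 6.47% of all genes, so neither share was above that of all genes. Their median log2 ratio was 0.11, against 0.07 for all genes. Svop, a transporter-like vesicle protein, was 34.8 and 71.6 CPM, 2.06-fold (1.55 to 2.77). The endocytic scaffold Itsn1 was 26.0 and 50.9 CPM and the membrane-bending protein Bin1 104 and 161 CPM, 1.96-fold (1.41 to 2.78) and 1.55-fold (1.31 to 1.84). Rab27b, a GTPase of dense-core vesicles, was 50.2 and 77.8 CPM and Cadps2, a priming factor of such vesicles, 24.8 and 40.8 CPM. Doc2b was 1.71-fold (1.02 to 2.95) higher, and the vesicular monoamine transporter Slc18a2 was 1.51-fold (0.99 to 2.37) higher. Ap2b1, an adaptor subunit of clathrin coats, was the 1 lower, at 149 and 79.1 CPM, 1.88-fold (1.57 to 2.24). None of the 13 other SNARE and disassembly genes was apart, and Nsf, which takes SNARE complexes apart, was 263 and 275 CPM.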

How the data were processed

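WT data were used as UMI counts, which the authors deposited per gene for each barcode. For Irx5KO, and for a table that merges both libraries, the authors deposited natural log values, found from the values to be ln(1 + scaled count) with each barcode scaled to 10000. Counts were recovered from the log values: 100% were whole within 1e-06, and 0 of 4275938 UMIs differed between the inverted merged table and the WT counts. Counts had been assumed for both libraries. STAR 2.6.0b, Picard, bcl2fastq, Seurat 3 and the build mm10 appear in the submitters' processing notes, without settings. Coordinates and overlaps were taken from GENCODE M21 on that build.

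Barcodes under 500 genes or over 20% mitochondrial UMIs were dropped, and doublets called by Scrublet (10 of 1851 in WT, 23 of 1972 in Irx5KO) were removed. Both libraries were clustered with the Leiden algorithm (2000 genes, 30 components, 15 neighbours, resolution 1), and neuron-like cells again, without the release genes. The rule that scores markers was set after clusters were seen. A cluster of 75 WT and 75 Irx5KO cells led by Gfap stayed unnamed and is in no comparison.

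UMIs were summed per class and library. Ratios have exact conditional binomial intervals, levels exact Poisson and shares exact Clopper-Pearson intervals. Ratios between genotypes needed 50 cells per library and 50 UMIs, and a 0 was set against 3 counts. Members named in the text were the 15 highest in neuron-like cells, those at least 2-fold above neurons in another class, those 1.5-fold apart in neuron-like cells and those 2-fold higher in 1 neuron cluster in both libraries; others are named within counts, near a limit, or after their values were seen. Of other release genes, up to 4 a list were named by the bound of the interval nearest to no difference. Single values of 2 members are not reported here, though counts and sums include them. Members and lists were chosen with earlier results of these data known. The interval code was tested on simulated counts. The tools were scanpy 1.11.5, scipy 1.17.1, numpy 2.4.6 and matplotlib 3.10.9 under Python 3.11.15.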

Additional observations from a re-analysis of the deposited data

How the results depend on the processing

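No paired analysis was possible because each genotype has 1 library, and for the same reason no library could be left out. Other filters on cells, doublets kept, release genes kept in clustering and a finer clustering left 32 to 34 members at least 2-fold higher in neuron-like cells, a stricter reading of the names (59 members) left 29, and leaving out the Vip cluster left 31. With Rab30 to Rab39b included there were 76 members. The count of members 1.5-fold higher in Irx5KO neuron-like cells was 1 in place of 2 under median-of-ratios scaling and without the neuron cluster led by Vip, Nms and Rgs16, a setting chosen after the data were seen. It was 3 under 3 of the 15 alternatives. The count 1.5-fold lower was 4 in place of 2 with a minimum of 200 genes per cell, and 3 under 9 of the 15 alternatives. The median log2 ratio of members ranged from -0.01 (median-of-ratios scaling) to 0.10 (mean over cells), so its sign is not fixed. Of 390 values of 30 named members under 13 alternatives, 381 stayed within the main counting interval and 0 of the called ones reversed. Stx2 stayed past 1.5-fold in 13 of 13 alternatives, Sv2c in 12, Unc13c in 11 and Syt6 in 8. Stxbp2, not called, was past it in 9. Few UMIs limit members such as Sv2c and Unc13a, and counting error is the only error these libraries give.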
